A study of Homo sapiens with 12 samples.

Results

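The 9 genes described here encode histones that lie outside the main set of replication-coupled histones, or that can be made from polyadenylated messages. They are H1-10, a linker histone; H3-3A and H3-3B, which encode the same H3.3 protein; H2AZ1 and H2AZ2, the paralogous genes of H2A.Z; H2AX; MACROH2A1; H2AJ; and H2BC12, an H2B gene of the large histone cluster. They were chosen by name, and each matched 1 row among the 60666 Ensembl gene rows of the deposited count table. Earlier results of these data were known when they were chosen, so shares of all genes stand beside their counts as a description only. RNA was measured in RPMI8226, KMS-11 and KMS-12, which are 3 established lines of human multiple myeloma, a plasma cell cancer, with genotype given as WT for each. JQ1, an inhibitor that keeps BET bromodomain proteins off acetylated chromatin, was used at 1 µM for 72 h in the treated cells of each line. The reference cells of each line received DMSO diluted in PBS so that the DMSO volume was equal. Each of these 6 groups held 2 libraries, 12 in all, made from total RNA with a stranded kit after removal of ribosomal RNA, so that messages without a poly(A) tail were captured too.

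Most histone protein is made in S phase from clustered genes whose messages end in a stem-loop in place of a poly(A) tail. Replacement variants are made from separate genes throughout the cell cycle, and dedicated chaperones place them in chromatin: HIRA or DAXX with ATRX for H3.3, and the SRCAP and TIP60/EP400 complexes for H2A.Z. H2AX carries the phosphorylation mark of DNA breaks, macroH2A has a large extra domain and is known from repressed chromatin, and H2A.Z sits beside active promoters, where nucleosomes with acetylated tails are bound by the BET protein BRD2.

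The promoters of 4 of these genes are shown because these genes had the 4 widest changes with JQ1 in any line. They are RefSeq sequences (GRCh38.p14), 300 bases long on the gene's strand, from 250 bases before the transcription start to 50 bases after it. Capitals mark, on either strand, CCAAT, the octamer ATTTGCAT, TATAAA and TTTGAA.
H1-10: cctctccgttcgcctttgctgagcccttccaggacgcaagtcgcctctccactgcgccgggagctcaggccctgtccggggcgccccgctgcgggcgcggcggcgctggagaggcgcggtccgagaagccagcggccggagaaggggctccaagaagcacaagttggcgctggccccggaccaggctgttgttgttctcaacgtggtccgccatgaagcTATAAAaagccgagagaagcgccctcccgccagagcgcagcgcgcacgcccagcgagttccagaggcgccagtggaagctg
H2AZ1: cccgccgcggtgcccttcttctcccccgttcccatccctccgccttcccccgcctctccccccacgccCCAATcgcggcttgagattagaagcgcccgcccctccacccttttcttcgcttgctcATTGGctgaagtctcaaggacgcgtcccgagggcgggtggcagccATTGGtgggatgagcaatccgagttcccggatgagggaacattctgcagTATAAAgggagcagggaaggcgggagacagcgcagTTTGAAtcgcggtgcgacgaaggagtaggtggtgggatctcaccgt
H2AX: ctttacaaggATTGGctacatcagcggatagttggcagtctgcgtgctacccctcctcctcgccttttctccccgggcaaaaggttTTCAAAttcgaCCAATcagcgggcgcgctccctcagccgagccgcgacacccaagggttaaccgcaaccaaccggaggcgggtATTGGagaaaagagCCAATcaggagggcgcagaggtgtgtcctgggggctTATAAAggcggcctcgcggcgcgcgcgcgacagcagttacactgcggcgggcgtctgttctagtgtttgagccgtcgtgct
H2BC12: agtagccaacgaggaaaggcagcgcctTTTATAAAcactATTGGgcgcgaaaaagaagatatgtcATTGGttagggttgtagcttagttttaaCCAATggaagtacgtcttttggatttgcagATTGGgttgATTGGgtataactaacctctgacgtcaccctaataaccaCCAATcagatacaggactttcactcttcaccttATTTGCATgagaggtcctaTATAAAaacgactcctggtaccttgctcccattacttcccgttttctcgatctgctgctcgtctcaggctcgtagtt
These windows span chr3:129316237-129316536, chr4:99950226-99950525, chr11:119095416-119095715 and chr6:27146809-27147108, each on the minus strand.

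The TATAAA match began 31 bases before the start in H1-10, H2AZ1 and H2AX, 29 bases before it in H3-3B, and 27 bases before it in H2BC12. It was found in 5 of the 9 genes and in 6 of their 14 windows, against 11.5% of 35116 RefSeq promoters searched in the same way. The H2BC12 window holds a further pair of TATAAA matches on opposite strands that overlap each other, 223 and 221 bases before the start. The octamer, found in 1.77% of all promoters, lay 46 bases before the start of H2BC12 and 76 bases before that of H3-3B, and in no window of the other 7. CCAAT was found in 11 of the 14 windows, from 8 genes, the exception being H1-10, and in 34.6% of all promoters. TTTGAA was found in 2 of the 14 windows, those of H2AZ1 and H2AX, and in 15.2% of all promoters. The 14 windows of the 9 genes were searched, several genes having more than 1. These matches describe letters, not bound sites.

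H2AX differs from the other variants in its message. In the GENCODE 29 transcripts, the histone stem-loop consensus (GG, 2 free bases, CTTTT, a free base, AG, 2 free bases, CC), searched on the transcript strand only, was found among the 9 genes in H2AX alone, at bases 555 to 570 of a transcript of 1614 bases, as follows with the motif in capitals.
H2AX: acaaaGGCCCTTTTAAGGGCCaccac
The motif was found in 52 of 19684 protein-coding genes (0.264%) and in 19 of 50 clustered histone genes (38%). The H2BC12 model is 381 bases long and ends before any stem-loop could be seen.

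Depth ran between 15424512 and 27366499 counts per library, and 23493 genes passed the filter on low counts and were tested. All 9 variants were tested, H2AJ through its KMS-12 counts. Levels are CPM, counts scaled to a common library total, after TMM scaling of library sizes, changes are log2 differences between JQ1 and DMSO libraries with their standard error (SE), and p-values are from edgeR's quasi-likelihood test with Benjamini-Hochberg adjustment over all genes tested, with a gene called at an adjusted p under 0.05. CPM are not divided by transcript length, so levels are compared between libraries and not between genes. The labels do not say that the 2 libraries of a group came from separate cultures, so the p-values measure the spread between these libraries. FGFR3 stood at 891 to 2620 CPM in KMS-11 libraries and at no more than 0.0938 CPM in the other lines, and the 8 plasma cell markers were detected in each of the 6 groups, at a sum of 1570 to 4010 CPM. Markers of T and NK cells summed to at most 42.8 CPM, of monocytes to 3.38, of stroma and epithelium to 35.6 and of erythroid cells to 0.0469. The 2 KMS-11 DMSO libraries stood apart from each other: their chi-square per degree of freedom was 22.3, against 5.64 to 13.2 for the replicate pairs of the other groups. Their summed level of 11 proliferation genes was 689 and 1740 CPM, the higher value in replicate 2, against 230 and 233 CPM in the KMS-11 JQ1 libraries. For the 9 genes, KMS-11 results that rest on 1 of these DMSO libraries are therefore given with and without it. KMS-11 changes of other genes, the clustered histone and proliferation genes among them, are given with both libraries only.

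Most of the variants were higher with JQ1, and a few were lower. Averaged over the lines, 6 of the 9 were called higher and 2 lower, while 49% of all genes tested were called, 22.3% higher and 26.7% lower. The 6 were H1-10, H3-3A, H3-3B, H2AZ2, H2AX and MACROH2A1, and the 2 were H2AZ1 and H2BC12. In KMS-11, 3 were called higher and 2 lower (17.3% and 21.2% of all genes, 38.5% in all). In KMS-12, 5 were called higher and 3 lower (20.2% and 25.7% of all genes, 46% in all). In RPMI8226, 7 were called higher and 0 lower (13.6% and 18.6% of all genes, 32.2% in all), the other 2 being H2AJ and H2BC12. The median log2 change was 0.26 in KMS-11 over 8 genes, without H2AJ, 0.33 in KMS-12 and 0.59 in RPMI8226 over the 9, against 0, -0.06 and -0.03 for all genes tested. Without KMS-11 DMSO replicate 1 or 2 the count called higher in KMS-11 was 1 or 5. Without 1 KMS-12 library the count called higher in KMS-12 was 2, or 3 where DMSO replicate 2 was left out, and with library size alone as the scaling it was 0, with 6 called lower.

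**Figure D1:**
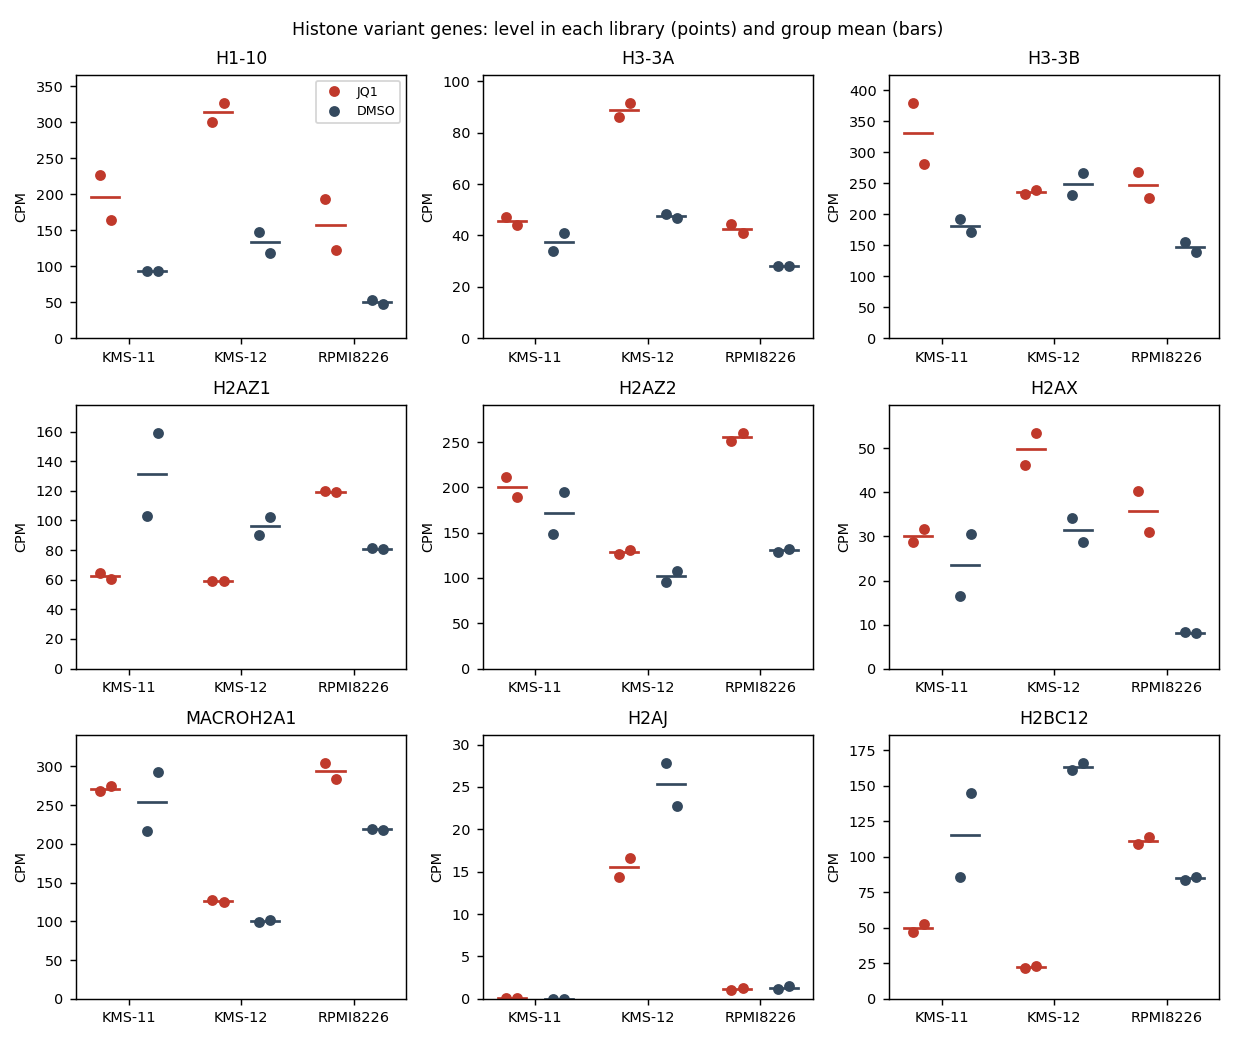
Level of each of the 9 genes in CPM (vertical axis, from 0) in each of the 12 libraries, by line, with JQ1 libraries in red to the left of DMSO libraries in blue and bars at the group means. H1-10 was higher with JQ1 in each line, H2AZ1 and H2BC12 were lower with JQ1 in KMS-11 and KMS-12 but not in RPMI8226, and H2AJ stood at 14.4 to 27.8 CPM in KMS-12 and at no more than 1.45 CPM elsewhere.

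H1-10 (ENSG00000184897, chr3:129314771-129316277, minus strand), a linker histone that binds DNA at its entry to and exit from the nucleosome, was higher with JQ1 in each of the 3 lines. In KMS-11 it stood at 227 and 165 CPM in JQ1 libraries, against 93.6 and 94.2 CPM in DMSO libraries. In KMS-12 it stood at 301 and 327 CPM in JQ1 libraries, against 148 and 119 CPM in DMSO libraries. In RPMI8226 it stood at 193 and 122 CPM in JQ1 libraries, against 53.0 and 47.3 CPM in DMSO libraries. The groups did not overlap in any line, and the JQ1 libraries of KMS-11 and RPMI8226 differed from each other more than their DMSO libraries did. The log2 change was 1.06 (SE 0.22, edgeR adjusted p = 0.00467) in KMS-11, a 2.09-fold level. It was 1.23 (SE 0.22, edgeR adjusted p = 0.00157) in KMS-12 and 1.65 (SE 0.23, edgeR adjusted p = 0.00058) in RPMI8226, or 2.35-fold and 3.14-fold levels. The 3 responses did not pass the test of a difference between lines (edgeR adjusted p = 0.355). Without RPMI8226 JQ1 replicate 2 the RPMI8226 response was called above those of KMS-11 (0.89, edgeR adjusted p = 0.0193) and KMS-12 (0.71, edgeR adjusted p = 0.032), and with library size alone it was called above that of KMS-12 (1.16, edgeR adjusted p = 0.014). Without either KMS-11 DMSO library the KMS-11 change was 1.06 or 1.08 with an edgeR adjusted p of 0.0704 in both cases, and with library size alone as the scaling the KMS-12 change was 0.46 (edgeR adjusted p = 0.0992).

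The H3.3 genes both rose on average, H3-3A most in KMS-12 and H3-3B in KMS-11 and RPMI8226 but not in KMS-12. H3-3A (ENSG00000163041, chr1:226061851-226072001, plus strand) stood in KMS-11 at 47.2 and 44.1 CPM in JQ1 libraries, against 33.9 and 40.8 CPM in DMSO libraries. In KMS-12 H3-3A stood at 86.2 and 91.6 CPM in JQ1 libraries, against 48.3 and 46.7 CPM in DMSO libraries. In RPMI8226 it stood at 44.3 and 40.9 CPM in JQ1 libraries, against 28.3 and 28.1 CPM in DMSO libraries. The JQ1 libraries lay above the DMSO libraries of the same line throughout, with the widest gap in KMS-12. Its log2 change was 0.90 (SE 0.11, edgeR adjusted p = 2.18e-06) in KMS-12, 0.59 (SE 0.11, edgeR adjusted p = 0.000511) in RPMI8226 and 0.29 (SE 0.11, edgeR adjusted p = 0.0436) in KMS-11. The change in KMS-12 exceeded that in KMS-11 by 0.61 (edgeR adjusted p = 0.00786). That difference was 0.098 (edgeR adjusted p = 0.702) with library size alone and 0.34 (edgeR adjusted p = 0.103) with MALAT1 and NEAT1 left out of the library size, a scaling chosen after seeing the data. The KMS-11 change was not called by DESeq2 (adjusted p = 0.0813), and was 0.16 (edgeR adjusted p = 0.329) without KMS-11 DMSO replicate 1 and 0.45 (edgeR adjusted p = 0.00545) without KMS-11 DMSO replicate 2. It was called in 3 of the 12 cases with 1 library left out. With library size alone the KMS-12 change was 0.13 (edgeR adjusted p = 0.284), and the RPMI8226 response was then called above those of KMS-11 (0.53, edgeR adjusted p = 0.0202) and KMS-12 (0.43, edgeR adjusted p = 0.0233).

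H3-3B (ENSG00000132475, chr17:75776434-75785893, minus strand) stood in KMS-11 at 380 and 282 CPM in JQ1 libraries, against 193 and 171 CPM in DMSO libraries. In RPMI8226 H3-3B stood at 268 and 226 CPM in JQ1 libraries, against 155 and 139 CPM in DMSO libraries. In KMS-12 it stood at 233 and 240 CPM in JQ1 libraries, against 232 and 266 CPM in DMSO libraries. The groups were apart in KMS-11 and RPMI8226 and overlapped in KMS-12, the line in which H3-3A rose most. The log2 change of H3-3B was 0.87 (SE 0.13, edgeR adjusted p = 6.68e-05) in KMS-11 and 0.75 (SE 0.13, edgeR adjusted p = 0.000388) in RPMI8226, or 1.82-fold and 1.68-fold levels. In KMS-12 it was -0.08 (SE 0.13, edgeR adjusted p = 0.699), and 0.031 (edgeR adjusted p = 0.982) without KMS-12 DMSO replicate 2. The KMS-12 response was below that of KMS-11 by a log2 difference of -0.94 (edgeR adjusted p = 0.00156), and the RPMI8226 response exceeded that of KMS-12 by 0.83 (edgeR adjusted p = 0.00384). With library size alone the KMS-12 change was -0.85 (edgeR adjusted p = 6.17e-05), and the average over lines was 0.16 (edgeR adjusted p = 0.1).

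Because both genes encode the same protein, the share of H3-3A in the reads of the pair was computed, a value within each library that no scaling of libraries changes. In KMS-12 the share was 27.0% and 27.6% in JQ1 libraries, against 17.3% and 14.9% in DMSO libraries. In KMS-11 it was 11.1% and 13.5% in JQ1 libraries, against 15% and 19.3% in DMSO libraries. In RPMI8226 it was 14.2% and 15.3% in JQ1 libraries, against 15.4% and 16.9% in DMSO libraries. The share was thus higher with JQ1 in both KMS-12 libraries and lower in both libraries of KMS-11 and RPMI8226, with group differences of 11.2, -4.85 and -1.4 percentage points. Averaged over lines the difference was 1.66 points (exact two-sided permutation test of the treatment labels within lines, p = 0.472; Benjamini-Hochberg adjusted over 2 shares, 0.472). Of H3-3A and H3-3B reads together, 47 rows of H3 pseudogenes held a number of reads equal to 2.93%, and how reads of near-identical copies were assigned is not given in the sources used here.

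**Figure D2:**
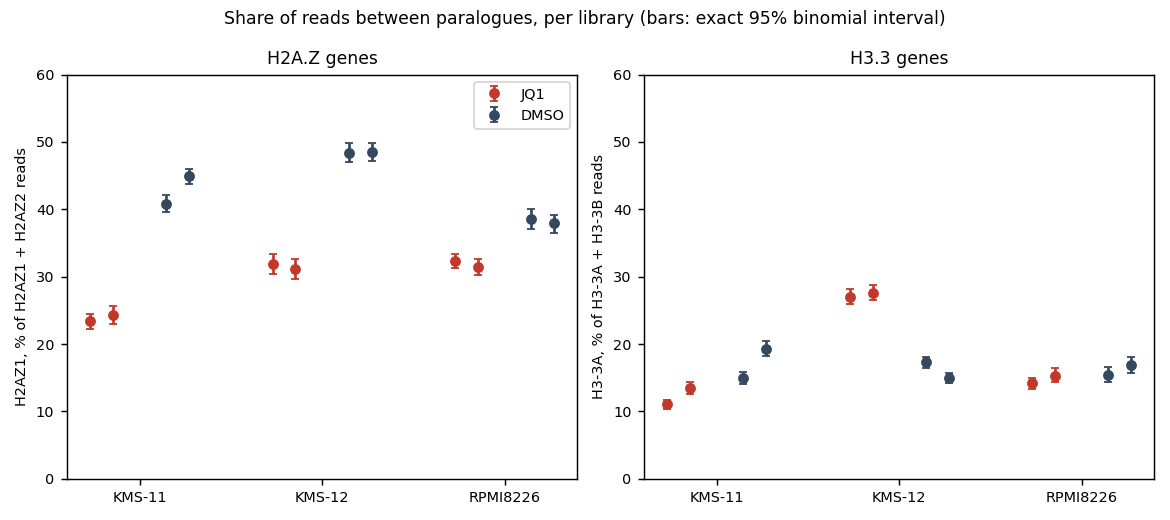
Share of H2AZ1 in H2AZ1 plus H2AZ2 reads (left) and of H3-3A in H3-3A plus H3-3B reads (right), in percent on the vertical axis, for each library by line, with JQ1 in red to the left of DMSO in blue and exact 95% binomial intervals as bars. The H2AZ1 share lay between 23.4% and 32.3% in JQ1 libraries and between 37.9% and 48.5% in DMSO libraries, while the H3-3A share was higher with JQ1 in KMS-12 alone.

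The H2A.Z genes moved apart. H2AZ1 (ENSG00000164032, chr4:99948086-99950388, minus strand) stood in KMS-11 at 64.6 and 60.7 CPM in JQ1 libraries, against 103 and 159 CPM in DMSO libraries. In KMS-12 H2AZ1 stood at 58.9 and 59.1 CPM in JQ1 libraries, against 90.1 and 102 CPM in DMSO libraries. In RPMI8226 it stood at 120 and 119 CPM in JQ1 libraries, against 81.1 and 80.7 CPM in DMSO libraries. The JQ1 libraries were the lower ones in KMS-11 and KMS-12 and the higher ones in RPMI8226, with no overlap in any line. H2AZ1 fell by 1.06 on the log2 scale in KMS-11 (SE 0.15, edgeR adjusted p = 5.01e-05) and by 0.70 in KMS-12 (SE 0.15, edgeR adjusted p = 0.00128), to 0.479 and 0.615 of the DMSO level. It rose by 0.56 in RPMI8226 (SE 0.15, edgeR adjusted p = 0.00883), a 1.48-fold level. The RPMI8226 response exceeded that of KMS-11 by 1.63 (SE 0.21, edgeR adjusted p = 0.000143) and that of KMS-12 by 1.27 (SE 0.21, edgeR adjusted p = 0.000457). The responses of KMS-12 and KMS-11 differed by 0.36, which did not pass the test (SE 0.21, edgeR adjusted p = 0.274). That difference was called without KMS-11 DMSO replicate 1 (0.65, edgeR adjusted p = 0.00109), and with library size alone it was -0.16 (edgeR adjusted p = 0.593). Leaving out 1 RPMI8226 library took the RPMI8226 change out of the calls in 3 of 4 cases, with changes of 0.56 to 0.57 and edgeR adjusted p of 0.0549 to 0.0587. Without KMS-11 DMSO replicate 2 the KMS-11 change was -0.70, the value nearest to 0 when 1 library was left out, and it was called in each such case.

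H2AZ2 (ENSG00000105968, chr7:44826791-44848083, minus strand) stood in RPMI8226 at 251 and 260 CPM in JQ1 libraries, against 129 and 132 CPM in DMSO libraries. In KMS-12 H2AZ2 stood at 126 and 131 CPM in JQ1 libraries, against 96.0 and 108 CPM in DMSO libraries. In KMS-11 it stood at 211 and 189 CPM in JQ1 libraries, against 149 and 195 CPM in DMSO libraries. The groups were apart in RPMI8226 and KMS-12 and overlapped in KMS-11, where DMSO replicate 2 reached the JQ1 range. H2AZ2 rose by 0.96 in RPMI8226 (SE 0.11, edgeR adjusted p = 5.58e-06), a 1.95-fold level, and by 0.33 in KMS-12 (SE 0.11, edgeR adjusted p = 0.0236). The KMS-12 call was lost without DMSO replicate 1 (0.25, edgeR adjusted p = 0.201), JQ1 replicate 1 (0.36, edgeR adjusted p = 0.0672) or JQ1 replicate 2 (0.31, edgeR adjusted p = 0.119) of that line, and with a mean of at least 10 CPM asked of each gene (0.25, edgeR adjusted p = 0.065). In KMS-11 the log2 change was 0.22 (SE 0.11, edgeR adjusted p = 0.138), and 0.45 (edgeR adjusted p = 0.00208) without DMSO replicate 2. The RPMI8226 response exceeded those of KMS-11 and KMS-12 by 0.74 and 0.63 (edgeR adjusted p = 0.00497 and 0.00772). The second difference was not called without KMS-12 DMSO replicate 2 (0.54, edgeR adjusted p = 0.0512). With library size alone the change in KMS-12 turned to -0.44 (edgeR adjusted p = 0.00141), and with MALAT1 and NEAT1 left out of the library size, an alternative chosen after seeing the data, it was 0.03 (edgeR adjusted p = 0.912).

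The share of H2AZ1 in the reads of the H2A.Z pair was lower with JQ1 in each line. In KMS-11 it was 23.4% and 24.3% in JQ1 libraries, against 40.8% and 44.9% in DMSO libraries. In KMS-12 it was 31.9% and 31.1% in JQ1 libraries, against 48.4% and 48.5% in DMSO libraries. In RPMI8226 it was 32.3% and 31.5% in JQ1 libraries, against 38.5% and 37.9% in DMSO libraries. No JQ1 library reached the DMSO range of its own line or of another line. The differences were -19, -17 and -6.3 percentage points, and -14.1 points averaged over lines (exact two-sided permutation test within lines, p = 0.00926, the smallest that this design can give; Benjamini-Hochberg adjusted over 2 shares, 0.0185). In RPMI8226, then, both genes rose and the share was still lower. These are shares of reads and not of molecules, since transcripts of the 2 genes differ in length, and the exact binomial intervals drawn in the plot of shares cover counting error only.

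H2AX (ENSG00000188486, chr11:119093854-119095467, minus strand), the variant phosphorylated around DNA breaks, gave the widest rise among the 9 genes, in RPMI8226. There it stood at 40.3 and 31.1 CPM in JQ1 libraries, against 8.39 and 7.99 CPM in DMSO libraries. In KMS-12 H2AX stood at 46.2 and 53.5 CPM in JQ1 libraries, against 34.1 and 28.8 CPM in DMSO libraries. In KMS-11 it stood at 28.7 and 31.6 CPM in JQ1 libraries, against 16.4 and 30.5 CPM in DMSO libraries. The RPMI8226 DMSO libraries were the lowest of the 12, and its JQ1 libraries lay within the range of the JQ1 libraries of the other lines, while the KMS-11 groups overlapped. H2AX rose by 2.13 in RPMI8226 (SE 0.26, edgeR adjusted p = 9.5e-05), a 4.37-fold level, and by 0.67 in KMS-12 (SE 0.23, edgeR adjusted p = 0.0379). In KMS-11 the change was 0.37 (SE 0.24, edgeR adjusted p = 0.27). The RPMI8226 response exceeded those of KMS-11 and KMS-12 by 1.76 (SE 0.35, edgeR adjusted p = 0.00784) and 1.46 (SE 0.35, edgeR adjusted p = 0.0103). Without RPMI8226 DMSO replicate 2 these differences were 1.73 and 1.42 with edgeR adjusted p of 0.0531 and 0.0567. The KMS-12 response was called above that of KMS-11 without KMS-11 DMSO replicate 1 (0.69, edgeR adjusted p = 0.0183), and was below it without KMS-11 DMSO replicate 2 (-0.22, edgeR adjusted p = 0.585). The KMS-11 change was 0.90 (edgeR adjusted p = 0.000256) without DMSO replicate 2 and -0.02 without DMSO replicate 1. The KMS-12 call was lost in 8 of the 12 cases with 1 library left out, 0.55 (edgeR adjusted p = 0.196) without KMS-12 DMSO replicate 2 being the smallest change, and library size alone turned it to -0.10.

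MACROH2A1 (ENSG00000113648, chr5:135333900-135399914, minus strand), whose protein carries a macrodomain beside its histone fold, had small changes. In RPMI8226 it stood at 304 and 284 CPM in JQ1 libraries, against 219 and 218 CPM in DMSO libraries. In KMS-12 MACROH2A1 stood at 128 and 125 CPM in JQ1 libraries, against 99.4 and 101 CPM in DMSO libraries. In KMS-11 it stood at 268 and 274 CPM in JQ1 libraries, against 217 and 292 CPM in DMSO libraries. The groups were apart in RPMI8226 and KMS-12 and overlapped in KMS-11, where the 2 DMSO libraries lay on either side of the JQ1 libraries. The log2 change was 0.43 (SE 0.11, edgeR adjusted p = 0.00652) in RPMI8226, 0.34 (SE 0.11, edgeR adjusted p = 0.0205) in KMS-12 and 0.09 (SE 0.11, edgeR adjusted p = 0.584) in KMS-11. The responses did not pass the test of a difference between lines (edgeR adjusted p = 0.224). Without KMS-11 DMSO replicate 1 the KMS-11 response was called below those of KMS-12 and RPMI8226, which exceeded it by 0.45 and 0.54 (edgeR adjusted p = 0.00864 and 0.0031). With library size alone the RPMI8226 response was called above those of KMS-11 and KMS-12, by 0.56 and 0.83 (edgeR adjusted p = 0.00913 and 0.000113). The RPMI8226 call was lost without RPMI8226 JQ1 replicate 1 (0.38, edgeR adjusted p = 0.0564). The KMS-12 call was lost whenever a KMS-12 library was left out (edgeR adjusted p between 0.0672 and 0.103), and library size alone turned that change to -0.43 (edgeR adjusted p = 0.00105) and the average over lines to -0.07. The KMS-11 change was 0.33 (edgeR adjusted p = 0.00823) without DMSO replicate 2 and -0.11 without DMSO replicate 1. Its relative MACROH2A2 had 0 to 3 reads in each group.

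H2AJ (ENSG00000246705, chr12:14774383-14778002, plus strand), an H2A variant known from senescent and secretory cells, had nearly all of its reads in KMS-12. It had 285 and 316 reads in KMS-12 JQ1 libraries, against 781 and 625 reads in KMS-12 DMSO libraries, or 14.4 and 16.6 CPM against 27.8 and 22.8 CPM. In RPMI8226 it had 21 and 21 reads in JQ1 libraries, against 24 and 35 reads in DMSO libraries. In KMS-11 it had 1 and 1 read in JQ1 libraries, against 0 and 0 reads in DMSO libraries. The KMS-12 groups were apart, the RPMI8226 groups overlapped in CPM, and both KMS-11 groups lay under the floor of 3 counts, so no change is given there. H2AJ fell by 0.71 in KMS-12 on the log2 scale (SE 0.19, edgeR adjusted p = 0.00541), to 0.613 of the DMSO level. That call was lost without DMSO replicate 1 (-0.55, edgeR adjusted p = 0.109) or JQ1 replicate 1 (-0.60, edgeR adjusted p = 0.0767). In RPMI8226 the change was -0.26 (SE 0.30, edgeR adjusted p = 0.561), and it differed from that in KMS-12 by 0.45 (SE 0.36, edgeR adjusted p = 0.437), or by 1.19 (edgeR adjusted p = 0.014) with library size alone. Against a floor of 3 counts in the KMS-11 DMSO group as a whole, which is 0.0611 CPM, the DMSO level was at least 414-fold higher in KMS-12 and at least 21.7-fold higher in RPMI8226 than in KMS-11.

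H2BC12 (ENSG00000197903, chr6:27146418-27146798, minus strand), an H2B gene of the chromosome 6 cluster with described polyadenylated messages, gave the widest fall. In KMS-12 it stood at 22 and 22.9 CPM in JQ1 libraries, against 161 and 166 CPM in DMSO libraries. In KMS-11 H2BC12 stood at 46.9 and 52.5 CPM in JQ1 libraries, against 85.8 and 145 CPM in DMSO libraries. In RPMI8226 it stood at 109 and 114 CPM in JQ1 libraries, against 83.5 and 86.1 CPM in DMSO libraries. The JQ1 libraries were far below in KMS-12, below in KMS-11 and above in RPMI8226, with no overlap in any line. H2BC12 fell by 2.86 on the log2 scale in KMS-12 (SE 0.20, edgeR adjusted p = 3.67e-07) and by 1.22 in KMS-11 (SE 0.19, edgeR adjusted p = 0.000298), to 0.137 and 0.43 of the DMSO level. In RPMI8226 the log2 change was 0.39 (SE 0.18, edgeR adjusted p = 0.125), which was called when that line was fitted alone (edgeR adjusted p = 0.00312), with no filter on low counts (0.00253), and without either KMS-11 DMSO library (0.000804 and 0.00121). The KMS-12 response was below that of KMS-11 by a log2 difference of -1.65 (SE 0.26, edgeR adjusted p = 0.00101). The RPMI8226 response exceeded that of KMS-11 by 1.61 (SE 0.26, edgeR adjusted p = 0.00202) and that of KMS-12 by 3.26 (SE 0.27, edgeR adjusted p = 5.91e-06). The KMS-11 change was -0.77 at the nearest to 0 when 1 library was left out.

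**Figure D3:**
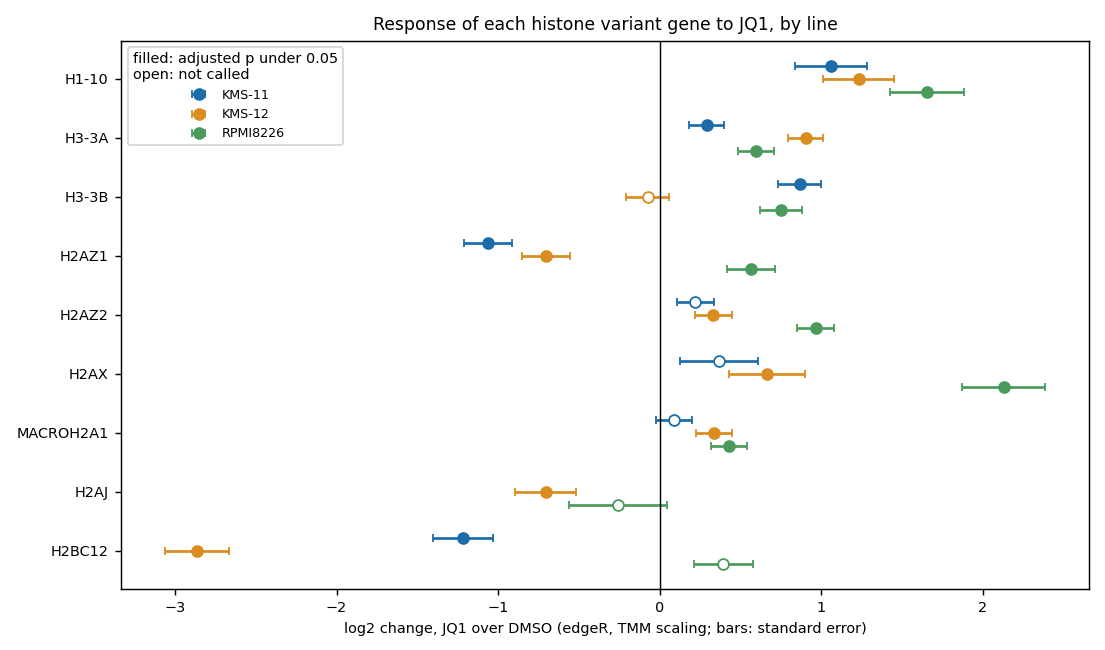
Log2 change between JQ1 and DMSO libraries (horizontal axis) of each gene in KMS-11 (blue), KMS-12 (orange) and RPMI8226 (green), with standard errors as bars, filled where the edgeR adjusted p was under 0.05; H2AJ has no KMS-11 point because both groups lay under the floor. H1-10 lay between 1.06 and 1.65 in the 3 lines, while H2BC12 ran between -2.86 in KMS-12 and 0.39 in RPMI8226.

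The 9 genes differed in how alike the lines were. The response differed between lines in 6 of the 9 (edgeR F test over the 3 responses, adjusted p under 0.05), as it did in 30.1% of all genes tested. These were H2AZ1, H2AZ2, H2AX, H3-3A, H3-3B and H2BC12, and the exceptions were H1-10, MACROH2A1 and H2AJ. For the difference between RPMI8226 and KMS-12, 5 were called, each with the higher response in RPMI8226, against 23.4% of all genes, 12.3% with the higher response in RPMI8226 and 11.1% with the lower. For that between RPMI8226 and KMS-11, 4 were called, again each with the higher response in RPMI8226, against 11.4% of all genes, 6.7% with the higher response in RPMI8226 and 4.72% with the lower. For that between KMS-12 and KMS-11, 3 were called, H3-3A with the higher response in KMS-12 and H3-3B and H2BC12 with the lower, against 20% of all genes, 10.1% higher and 9.87% lower in KMS-12. Without KMS-11 DMSO replicate 1 this last count was 6. By overlap of the groups alone, JQ1 libraries lay above DMSO libraries in RPMI8226 for 8 genes (30.1% of all genes), below for 0 (35.7%), and overlapped for H2AJ. In KMS-12 they lay above for 5 (31.6% of all genes) and below for 3 (40.6%), and in KMS-11 above for 4 (30%), H2AJ with its single reads among them, and below for 2 (33.5%).

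The clustered, replication-dependent histone genes were set beside the variants, and their median change had the sign of the H2BC12 change in each line. Of 52 listed, 43 were tested. In KMS-12, 30 were called lower and 2 higher (25.7% and 20.2% of all genes), with a median log2 change of -1.87, against -0.06 for all genes tested. In KMS-11, 24 were lower and 0 higher (21.2% and 17.3% of all genes), with a median of -1.43, against 0 for all genes. In RPMI8226, 22 were higher and 0 lower (13.6% and 18.6% of all genes), with a median of 1.41, against -0.03 for all genes. By the rule for named genes, examples averaged over lines were H2BC13 (-1.92, SE 0.21, edgeR adjusted p = 2.67e-06), H2AC21 (-1.54, SE 0.19, 6.46e-05), H3C2 (-2.98, SE 0.34, 0.000347) and, in the other direction, H2BC6 (0.89, SE 0.12, 5.24e-06). H2BC13 fell by 4.21 in KMS-12, fell by 3.04 in KMS-11 and rose by 1.48 in RPMI8226 (edgeR adjusted p = 1.15e-06, 8.44e-06 and 0.00332). H2AC21 and H3C2 likewise fell in KMS-12 and KMS-11 and rose in RPMI8226, by 1.853 and 1.845 (edgeR adjusted p = 0.00133 and 0.0318). There H2BC6 rose by 1.08 (edgeR adjusted p = 0.000594). The summed level of the 52 genes was 682 and 702 CPM in KMS-12 JQ1 libraries, against 2350 and 2570 CPM in KMS-12 DMSO libraries. It was 639 and 729 CPM in KMS-11 JQ1 libraries, against 885 and 2030 CPM in KMS-11 DMSO libraries, and 1670 and 2030 CPM in RPMI8226 JQ1 libraries, against 615 and 774 CPM in RPMI8226 DMSO libraries.

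**Figure D4:**
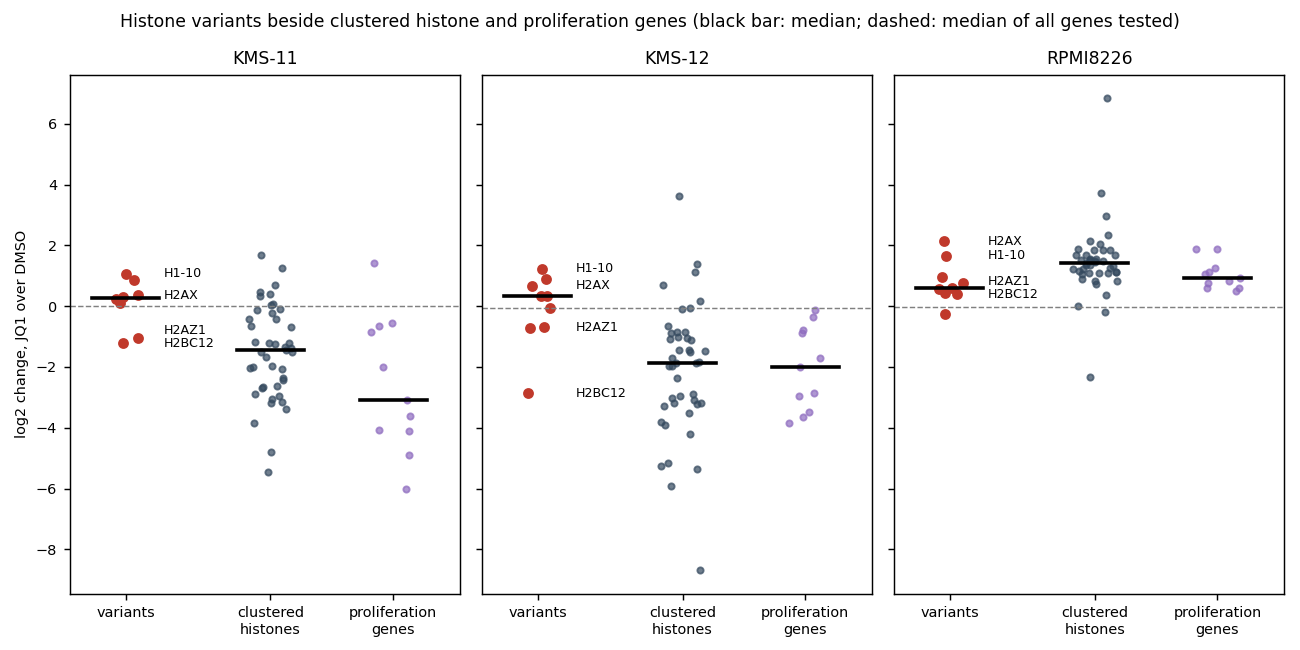
Log2 change between JQ1 and DMSO libraries (vertical axis) in each line for the histone variants with a change given (red), the 43 clustered histone genes tested (dark blue) and 11 proliferation genes (purple), with a black bar at each median and a dashed line at the median of all genes tested. The variants' medians lay between 0.26 and 0.59, while the clustered histones' medians were 1.41 in RPMI8226, -1.87 in KMS-12 and -1.43 in KMS-11.

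Genes of the cell cycle moved with the clustered histones. Of 11 proliferation genes, 9 were called lower and 1 higher in KMS-11, 9 lower and 0 higher in KMS-12, and 7 higher and 0 lower in RPMI8226, with median log2 changes of -3.09, -2.00 and 0.91. Their summed level was 159 and 206 CPM in KMS-12 JQ1 libraries, against 636 and 710 CPM in KMS-12 DMSO libraries. In RPMI8226 it was 1170 and 1210 CPM in JQ1 libraries, against 563 and 598 CPM in DMSO libraries. E2F1, a transcription factor of S phase entry, fell by 2.00 in KMS-11, fell by 2.97 in KMS-12 and rose by 0.91 in RPMI8226 (edgeR adjusted p = 0.000118, 1.74e-05 and 0.0196). RRM2, a subunit of ribonucleotide reductase, fell by 6.01 in KMS-11, fell by 2.86 in KMS-12 and rose by 1.90 in RPMI8226 (edgeR adjusted p = 0.000943, 0.00913 and 0.0411), while CCNE2, a cyclin of S phase entry, rose by 1.43 in KMS-11 and by 1.26 in RPMI8226 (0.000165 and 0.000995). H2AZ1 and H2BC12 had the sign of the proliferation median in each line, while H1-10 and H3-3A were positive in each line. H2AZ2, H2AX and MACROH2A1 were positive in each line too, without a call in KMS-11. The part of proliferation in the variants' changes was not tested, and in bulk libraries fewer cells with a transcript and less RNA per cell cannot be told apart.

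Other histone genes with replacement roles or described polyadenylated messages were 12, of which 8 were tested. Averaged over lines 3 were called higher and 2 lower (22.3% and 26.7% of all genes). The median log2 change of the 8 was 0.25, against -0.10 for all genes tested. CENPA, the centromeric H3 variant, fell by 4.83 in KMS-11, fell by 3.13 in KMS-12 (edgeR adjusted p = 1.07e-05 and 4.24e-05) and was at 0.45 in RPMI8226 (edgeR adjusted p = 0.367). H2AC6 rose by 0.67 in KMS-11 and by 0.60 in RPMI8226 (edgeR adjusted p = 0.000556 and 0.00183), with -0.18 in KMS-12 (0.275), and H2BC4 fell by 1.29 in KMS-11 and by 2.35 in KMS-12 (0.0142 and 0.0007), with 0.83 in RPMI8226 (0.0813).

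Among 7 genes of H3.3 deposition, 3 were called higher and 1 lower on average (22.3% and 26.7% of all genes). The median of the 7 was 0.11, against -0.10 for all genes tested. Changes here and in the next 3 paragraphs are with TMM scaling, and KMS-12 values depend on the scaling as described below. UBN1 and CABIN1, subunits of the HIRA complex, rose in each line: UBN1 by 0.46 in RPMI8226, 0.65 in KMS-12 and 0.67 in KMS-11 (edgeR adjusted p = 0.00129, 2.3e-05 and 2.42e-05), and CABIN1 by 0.58, 0.82 and 0.37 in the same order (0.000187, 2.75e-06 and 0.00551). ATRX, the remodeller that works with DAXX, rose by 0.69 in KMS-12 (edgeR adjusted p = 9.28e-05). HIRA and DAXX themselves were called in no line, with log2 changes between -0.21 and 0.22. UBN2, the paralogue of UBN1, averaged -0.15 (edgeR adjusted p = 0.0206) and by line was called in KMS-12 alone (-0.23, 0.0456).

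Among 16 genes of H2A.Z exchange, 5 were called higher and 4 lower on average (22.3% and 26.7% of all genes, median 0.03). SRCAP, the ATPase that inserts H2A.Z, rose by 0.41 in RPMI8226, 1.00 in KMS-12 and 0.37 in KMS-11 (edgeR adjusted p = 0.00958, 1.37e-06 and 0.0159). ANP32E, a chaperone that removes H2A.Z, fell by 1.41 in KMS-12 and by 1.24 in KMS-11 (edgeR adjusted p = 3.92e-05 and 0.000157), with -0.45 in RPMI8226 (0.0675). BRD8, a bromodomain subunit of the TIP60/EP400 complex, rose in each line by 0.57 to 0.89 (edgeR adjusted p between 0.000267 and 0.0106). RUVBL1, a shared ATPase subunit, averaged 0.44 (edgeR adjusted p = 2.78e-06), without a call in KMS-12 (0.23, 0.0571). INO80, the remodeller of the complex of that name, fell by 0.32 in RPMI8226, fell by 0.49 in KMS-12 and fell by 0.38 in KMS-11 (edgeR, called in each).

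Among 10 genes of H2AX signalling, 6 were called higher and 1 lower on average (22.3% and 26.7% of all genes, median 0.20). ATR, a kinase of H2AX at stalled forks, rose by 0.35 in RPMI8226, 0.68 in KMS-12 and 0.48 in KMS-11 (edgeR adjusted p = 0.00643, 8.02e-06 and 0.000377). ATM, its kinase at double-strand breaks, fell by 0.76 in KMS-11 and by 0.59 in RPMI8226 (edgeR adjusted p = 8.66e-06 and 0.000163), with -0.09 in KMS-12 (0.515). PPM1D, a phosphatase that removes the H2AX mark, rose by 0.62 in RPMI8226, 0.57 in KMS-12 and 0.72 in KMS-11 (edgeR adjusted p = 0.00266, 0.00246 and 0.00042). RNF168, a ubiquitin ligase acting after the mark, averaged 0.45 (edgeR adjusted p = 2.86e-06). By line it was called in KMS-12 alone (0.86, edgeR adjusted p = 1.29e-06), with 0.23 in KMS-11 and 0.27 in RPMI8226 (0.0761 and 0.0502).

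Of 14 general histone chaperones, 5 were called higher and 5 lower on average (22.3% and 26.7% of all genes, median -0.06). In RPMI8226, 9 were higher and 0 lower (13.6% and 18.6% of all genes), against 2 higher and 6 lower in KMS-12 (20.2% and 25.7%). SUPT16H, a subunit of FACT, rose by 1.04 in RPMI8226, 0.49 in KMS-12 and 0.29 in KMS-11 (edgeR adjusted p = 4.59e-07, 0.000499 and 0.0253). CHAF1A, the large subunit of the replication-coupled chaperone CAF-1, fell by 2.13 in KMS-11, fell by 2.17 in KMS-12 and rose by 1.03 in RPMI8226 (edgeR adjusted p = 2.77e-06, 1.25e-06 and 0.00113). SUPT6H and NAP1L4 averaged 0.64 and 0.43 (edgeR adjusted p = 3.05e-08 and 7.74e-07), NAP1L4 without a call in KMS-12 (0.13, 0.231). Of 11 genes of histone message processing, 4 were higher and 3 lower on average (22.3% and 26.7% of all genes, median 0.14). LSM11, part of the U7 particle that helps cut stem-loop messages, fell by 1.81 in KMS-12 and by 0.77 in KMS-11 (edgeR adjusted p = 2.67e-06 and 0.006), with -0.55 in RPMI8226 (0.0521). NPAT, the activator of clustered histone transcription, averaged 0.42, CASP8AP2 averaged 0.43 and CPSF2 averaged -0.29 (edgeR adjusted p = 4.29e-06, 1.9e-05 and 0.00017). By line, NPAT was not called in KMS-11 (0.21, edgeR adjusted p = 0.0952). CASP8AP2 and CPSF2 were not called in KMS-12 (0.21 and -0.21, edgeR adjusted p = 0.129 and 0.0693). SLBP, the stem-loop binding protein, was called in no line, with changes of -0.93, 0.70 and 0.88.

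In the absence of JQ1 most of these genes were called apart between lines, as were most of all genes tested. These 3 contrasts share DMSO libraries, so their values are given side by side. The counts of each contrast include H2AJ, which lay under the floor of 3 counts in KMS-11 and had nearly all of its reads in KMS-12. Between KMS-11 and KMS-12, 7 of the 9 were called, against 62.9% of all genes tested. Between RPMI8226 and KMS-11, 6 were called, against 58.2% of all genes, and between RPMI8226 and KMS-12, 8 were called, against 62.5%. The first count was 4 without KMS-12 DMSO replicate 1, and the second was 3 without KMS-11 DMSO replicate 2. H2AX was lower in RPMI8226 than in KMS-11 by a log2 difference of -1.51 and than in KMS-12 by -1.94 (edgeR adjusted p = 0.000364 and 4.27e-05), while KMS-11 and KMS-12 did not pass the test (-0.43, edgeR adjusted p = 0.142). This last difference was called without KMS-11 DMSO replicate 2 (-0.94, edgeR adjusted p = 5.73e-05), and the first was then -0.99 (edgeR adjusted p = 5.7e-05). The KMS-11 over KMS-12 difference of H2AX was also called with library size alone (-0.65, edgeR adjusted p = 0.0148) and with no filter on low counts (edgeR adjusted p = 0.0088). MACROH2A1 was higher in KMS-11 and RPMI8226 than in KMS-12, by 1.35 and 1.13 (edgeR adjusted p = 8.46e-09 and 9.33e-08), and RPMI8226 and KMS-11 did not pass the test (-0.22, edgeR adjusted p = 0.097). That difference rests on the KMS-11 DMSO libraries: it was called without replicate 1 (-0.42, edgeR adjusted p = 0.000498) and was 0.021 (edgeR adjusted p = 0.878) without replicate 2.

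For H1-10, RPMI8226 had the lowest DMSO level, 50.1 ± 4.02 CPM, with 93.9 ± 0.451 CPM in KMS-11 and 134 ± 20.4 CPM in KMS-12 (SD, n = 2 each). The RPMI8226 level was below the others by log2 differences of -0.91 and -1.42 (edgeR adjusted p = 0.00714 and 0.000462), and KMS-11 and KMS-12 did not pass the test (-0.51, edgeR adjusted p = 0.0718). The KMS-11 over KMS-12 difference was called in 12 of 22 alternatives, among them DESeq2 (adjusted p = 0.0158), limma-voom (adjusted p = 0.0407), library size alone (-0.72, edgeR adjusted p = 0.0171) and no filter on low counts (edgeR adjusted p = 0.00769). The call between RPMI8226 and KMS-11 was lost without KMS-11 DMSO replicate 1 (-0.92, edgeR adjusted p = 0.0631), KMS-11 DMSO replicate 2 (-0.89, edgeR adjusted p = 0.078) or RPMI8226 DMSO replicate 2 (-0.82, edgeR adjusted p = 0.0582). H3-3A was ordered in the same way, at 28.2 ± 0.146, 37.4 ± 4.94 and 47.5 ± 1.13 CPM in RPMI8226, KMS-11 and KMS-12, and each neighbouring pair was called (RPMI8226 over KMS-11 -0.40, KMS-11 over KMS-12 -0.35, edgeR adjusted p = 0.0045 and 0.00955). The first of these calls was lost without KMS-11 DMSO replicate 2 (-0.25, edgeR adjusted p = 0.0847), and the second without KMS-11 DMSO replicate 1 (-0.21, edgeR adjusted p = 0.126) or KMS-12 DMSO replicate 1 (-0.32, edgeR adjusted p = 0.0604). The order was again the same for H3-3B, at 147 ± 11.6, 182 ± 15.3 and 249 ± 24.4 CPM, with RPMI8226 and KMS-11 not called apart (-0.31, edgeR adjusted p = 0.0566) and KMS-11 below KMS-12 by a log2 difference of -0.45 (edgeR adjusted p = 0.00641). That call was lost without KMS-11 DMSO replicate 2 (-0.37, edgeR adjusted p = 0.113) or KMS-12 DMSO replicate 2 (-0.35, edgeR adjusted p = 0.0747), while the H3-3B difference between RPMI8226 and KMS-11 was called in 7 of 22 alternatives, among them no filter on low counts (edgeR adjusted p = 0.00657). For H2BC12 the levels were 84.8 ± 1.81, 116 ± 42.1 and 164 ± 3.42 CPM, with RPMI8226 and KMS-11 not called apart (-0.45, edgeR adjusted p = 0.0535) and KMS-11 below KMS-12 by -0.50 (edgeR adjusted p = 0.0292). Without KMS-11 DMSO replicate 1 these H2BC12 differences were -0.78 (edgeR adjusted p = 8.85e-07) and -0.16 (edgeR adjusted p = 0.177), and without KMS-11 DMSO replicate 2 the second was -0.93 (edgeR adjusted p = 9.66e-08). The second was not called without either KMS-12 DMSO library (edgeR adjusted p = 0.0813 and 0.105) or without either RPMI8226 JQ1 library (0.051 and 0.0505), and the first was called by DESeq2 (adjusted p = 0.0398) and with no filter on low counts (edgeR adjusted p = 0.000206). KMS-12 thus had the highest mean DMSO level of H1-10, H3-3A, H3-3B, H2AX, H2AJ and H2BC12.

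The H2A.Z genes had another order. H2AZ1 was at 80.9 ± 0.277 CPM in RPMI8226, 96 ± 8.28 CPM in KMS-12 and 131 ± 39.8 CPM in KMS-11 DMSO libraries (SD, n = 2 each), with RPMI8226 and KMS-12 not called apart (-0.25, edgeR adjusted p = 0.16) and KMS-11 above KMS-12 by 0.45 (edgeR adjusted p = 0.015). Without KMS-11 DMSO replicate 1 or 2 the KMS-11 over KMS-12 difference was 0.74 (edgeR adjusted p = 1.7e-06) or 0.10 (edgeR adjusted p = 0.453), and it was 0.36 (edgeR adjusted p = 0.117) without KMS-12 DMSO replicate 1 and 0.23 (edgeR adjusted p = 0.134) with library size alone. The RPMI8226 over KMS-12 difference was called without either KMS-11 DMSO library (-0.24 and -0.23, edgeR adjusted p = 0.0159 and 0.022) and with library size alone (-0.40, edgeR adjusted p = 0.0124). The RPMI8226 over KMS-11 difference was -0.69 (edgeR adjusted p = 0.000909), or -0.33 (edgeR adjusted p = 0.011) without KMS-11 DMSO replicate 2. H2AZ2 was at 102 ± 8.5 CPM in KMS-12, 131 ± 2.12 CPM in RPMI8226 and 172 ± 32.8 CPM in KMS-11, with both neighbouring pairs called (RPMI8226 over KMS-12 0.36, RPMI8226 over KMS-11 -0.39, edgeR adjusted p = 0.0106 and 0.0063). The call between RPMI8226 and KMS-11 was lost without KMS-11 DMSO replicate 2 (-0.17, edgeR adjusted p = 0.175). That between RPMI8226 and KMS-12 was lost without KMS-12 DMSO replicate 1 (0.27, edgeR adjusted p = 0.12), without RPMI8226 DMSO replicate 2 (0.35, edgeR adjusted p = 0.052) and with library size alone (0.20, edgeR adjusted p = 0.0963).

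How far the KMS-12 results rest on scaling could be measured. The nuclear RNA MALAT1 held 25.7% and 25.8% of all counts in KMS-12 JQ1 libraries, against 8.06% and 9.01% in KMS-12 DMSO libraries. In KMS-11 it held 14.5% to 16.5% in JQ1 libraries, against 3.61% to 3.98% in DMSO libraries, and in RPMI8226 6.31% to 6.56%, against 4.11% to 4.58%. With library size alone the median of all genes in KMS-12 shifted by -0.76, and by -0.25 and -0.03 in KMS-11 and RPMI8226. In KMS-12, 13815 of 23493 genes tested were then called, 7.49% of them higher, against 10804 with TMM scaling, 44% of them higher. Under that scaling 0 of the 9 variants were called higher in KMS-12 and 6 were called lower. H2AZ1, H2AJ and H2BC12 were lower in KMS-12 under each of the 3 scalings drawn, and H1-10 and H3-3A were higher under each, though not called with library size alone. Among the partner genes, the KMS-12 rises of UBN1 (0.65), ATRX (0.69), ATR (0.68), PPM1D (0.57) and SUPT16H (0.49) were smaller than the median shift of 0.76. Those of CABIN1 (0.82), RNF168 (0.86), BRD8 (0.89) and SRCAP (1.00) were larger. Values of these partner genes with library size alone are not given here.

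**Figure D5:**
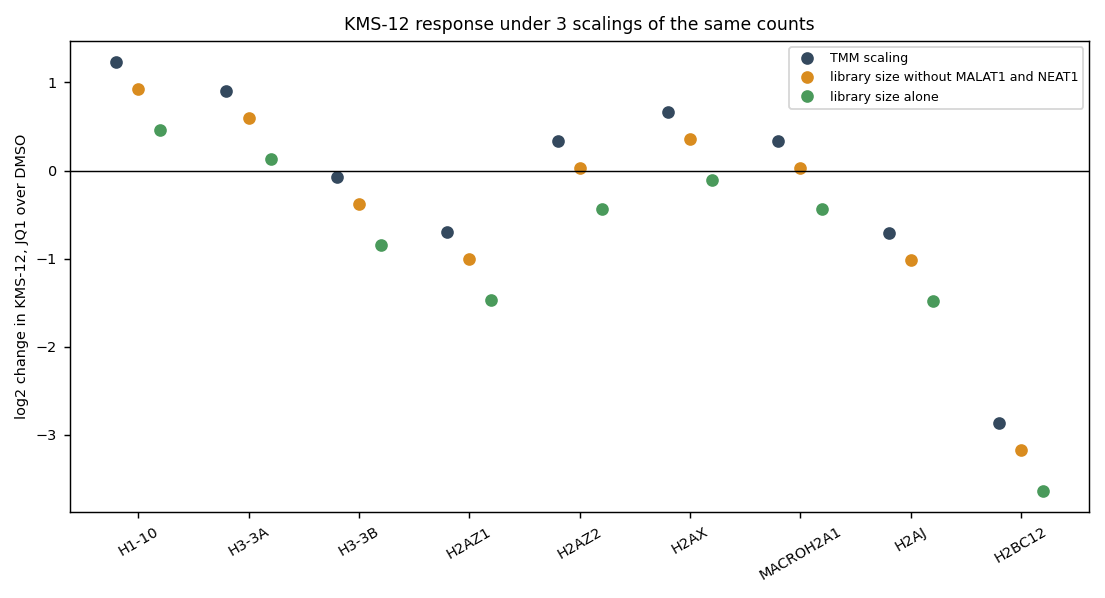
Log2 change between JQ1 and DMSO libraries in KMS-12 (vertical axis) for each gene under TMM scaling (dark blue), library size without MALAT1 and NEAT1 (orange) and library size alone (green). The points of H2AZ2, H2AX and MACROH2A1 crossed 0 between TMM scaling (0.33, 0.67 and 0.34) and library size alone (-0.44, -0.10 and -0.43), while those of H2BC12 stayed between -2.86 and -3.63.

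Several of these genes have a neighbour that overlaps them, and whether the authors counted by strand is not given in the sources used here. H2AZ1-DT, a divergent transcript sharing 383 bases with H2AZ1, had 1114 reads over the 12 libraries, 4.54% of the H2AZ1 number. It rose by 1.08 in RPMI8226, 1.15 in KMS-12 and 1.71 in KMS-11 (edgeR adjusted p = 0.0486, 0.0079 and 0.000751), so in KMS-11 and KMS-12 it rose where H2AZ1 fell. H1-10-AS1, which shares 886 bases with H1-10, had 4.96% as many reads as that gene and fell by 0.80 in KMS-11 and rose by 0.69 in KMS-12 (edgeR adjusted p = 0.00794 and 0.0108). UNK, which shares 1123 bases with H3-3B, had 24.5% as many reads and averaged 0.27 (edgeR adjusted p = 0.00334). H3-3A-DT, with 26 shared bases and 9.52% as many reads as H3-3A, averaged -0.63 (edgeR adjusted p = 0.00809). PITX1-AS1, which shares 24320 bases with MACROH2A1, had 1.1% as many reads and averaged -1.37 (edgeR adjusted p = 0.000191).

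For each variant the 2 genes whose log2 CPM ran most alike over the 12 libraries were taken from the tested genes with a mean of at least 10 CPM, as a description in which the libraries of 1 line share that line. For H2BC12 they were H2BC7, another H2B gene of the cluster, and NDC1, a nuclear pore protein (Pearson r = 0.968 and 0.959). For H2AZ1 they were WDR62, a spindle pole protein, and FANCB, of the Fanconi anaemia DNA repair complex (0.964 and 0.963). For H2AX they were CBX1, a heterochromatin protein, and COQ2, of coenzyme Q synthesis (0.944 and 0.943). H1-10 ran with USP19 and ANKRD26 (0.966 and 0.964), H2AZ2 with CALM2 and RAB33B-AS1 (0.97 each), and MACROH2A1 with CNOT1 and KLHL12 (0.989 each). H3-3A ran with BMP8B and ENSG00000280287 (0.984 and 0.982), and H3-3B with SNRNP27 and LINC00205 (0.94 and 0.933). H2AJ ran with ENSG00000234352 and LIN28B (0.996 and 0.995), 2 further genes whose level separates the lines. H2BC7 stood at 10.5 ± 0.712 CPM in KMS-12 JQ1 libraries, against 97.9 ± 0.093 CPM in KMS-12 DMSO libraries, and at 86.5 ± 13.1 CPM in RPMI8226 JQ1 libraries, against 39 ± 4.95 CPM in RPMI8226 DMSO libraries (SD, n = 2 each).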

How the data were processed

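RNA-seq of 12 libraries was analysed from the table of raw read counts per Ensembl gene that the authors deposited. Per the labels' protocols, total RNA was depleted of ribosomal RNA and made into stranded libraries. Tools named in the submitters' processing notes are MACS2 and DESeq2, and builds named there are GRCh38.p13 and hg38. Nothing used here names the aligner, the counting program or its annotation. Line and treatment labels gave the groups. Counts were scaled by TMM, filtered with filterByExpr (minimum count 10, minimum total 15) and tested in edgeR 4.0.16 (R 4.3.3) with a robust quasi-likelihood fit of 6 group means and Benjamini-Hochberg adjustment over 23493 genes. CPM were computed from the counts, with a floor of 3 counts equal to 0.107 to 0.178 CPM per library. Counting error is all that intervals and floors cover, because reads were not tied to single molecules.

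The members and lists were chosen with earlier results of these data known. Named list genes were up to 4 per list, those with the smallest p for the average of the lines among genes of at least 1 CPM, with partners of a member beside them. A gene that this rule picks is not reported here. HIRA, DAXX, INO80 and SLBP were named as such partners. Alternative tools were DESeq2 1.42.0 and limma-voom (limma 3.58.1). Other scalings were library size alone, RLE, and TMM factors that leave out 7SK/7SL, histone, mitochondrial and immunoglobulin genes. Other filters were none and 10 CPM on average, and other designs were each line by itself, a block for the replicate number, and each library left out in turn. Library size without MALAT1 and NEAT1 was added after seeing the data. The fit was tested on simulated counts, where false calls ran above the nominal level for the average of the lines and most small changes in a single line were missed. Gene positions are from GENCODE 29 (GRCh38) and promoters from RefSeq (GRCh38.p14).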

Additional observations from a re-analysis of the deposited data

Results flagged for a closer look

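The response to JQ1 differed between the 3 lines for 6 of the 9 genes, and for 30.1% of all genes tested. The test was edgeR's F test of the 3 responses with Benjamini-Hochberg adjustment over all genes tested. The distance between the highest and the lowest log2 response was 3.26 for H2BC12, with RPMI8226 highest and KMS-12 lowest (edgeR adjusted p = 1.38e-05). It was 1.76 for H2AX and 1.63 for H2AZ1, with RPMI8226 highest and KMS-11 lowest (edgeR adjusted p = 0.00565 and 8.27e-05). For H2AZ2 it was 0.74 between the same lines (edgeR adjusted p = 0.00309). The H3.3 genes gave opposite orders: for H3-3A the distance was 0.61, with KMS-12 highest and KMS-11 lowest (edgeR adjusted p = 0.0158), and for H3-3B it was 0.94, with KMS-11 highest and KMS-12 lowest (edgeR adjusted p = 0.00167).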

How the results depend on the processing

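Over the alternatives, 1715 of the values given for single variant genes kept their direction and their side of the threshold, 73 lost a call, 56 gained one and 26 reversed. Values not called either time are among the 1715. Many alternatives leave out a library of another line, which hardly moves the change of a single line. The number kept is thus no measure of how firm the results are. With library size alone, 0 variants were called higher and 6 lower in KMS-12, and 9 differed between RPMI8226 and KMS-12. Of 23493 genes tested, 13815 were then called in KMS-12, and 7.49% of those calls were higher. The share of all genes differing between RPMI8226 and KMS-12 was not computed with library size alone, so the count of 9 has no background here. The median of all genes shifted by -0.76 in KMS-12 and by -0.03 in RPMI8226 with library size alone. Under that scaling these log2 changes reversed: H2AZ2 (-0.44), MACROH2A1 (-0.43) and H2AX (-0.10) for KMS-12, MACROH2A1 (-0.16) and H2AZ2 (-0.033) for KMS-11, and MACROH2A1 (-0.067) on average. The response differences of KMS-12 over KMS-11 reversed for H2AZ2 (-0.40), H1-10 (-0.34), MACROH2A1 (-0.27), H2AX (-0.22) and H2AZ1 (-0.16), as did that of RPMI8226 over KMS-12 for H3-3A (0.43) and that of RPMI8226 over KMS-11 for H3-3B (0.12). With MALAT1 and NEAT1 left out of the library size, an alternative chosen after seeing the data, 2 variants were called higher in KMS-12. The reversals there were KMS-12 over KMS-11 for H2AZ2 (-0.16), H1-10 (-0.10) and MACROH2A1 (-0.024), and RPMI8226 over KMS-12 for H3-3A (0.0091). The cause was not tested beyond the MALAT1 shares given above. With a mean of at least 10 CPM, which tests fewer genes, 4874 genes were called for RPMI8226, 6656 for KMS-12, 5979 for KMS-11 and 7206 on average, against 7574, 10804, 9040 and 11509.

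When 1 library was left out, the count of variants called higher lay between 5 and 8 for RPMI8226, 2 and 5 for KMS-12 and 1 and 5 for KMS-11, with 6 on average each time. The count of differing responses of KMS-12 and KMS-11 lay between 3 and 6. Among DMSO libraries the count lay between 4 and 8 for KMS-11 over KMS-12 and between 3 and 7 for RPMI8226 over KMS-11. The KMS-11 change ran between -0.019 and 0.90 for H2AX and between -0.11 and 0.33 for MACROH2A1, both negative without DMSO replicate 1. The KMS-12 change of H3-3B ran between -0.17 and 0.031, positive without DMSO replicate 2. The KMS-12 over KMS-11 difference ran between -0.22 and 0.69 for H2AX and between -0.10 and 0.30 for H2AZ2, both negative without KMS-11 DMSO replicate 2, and between -0.038 and 0.42 for H1-10, negative without KMS-11 JQ1 replicate 2. The RPMI8226 over KMS-11 difference of H3-3B ran between -0.31 and 0.11, positive without KMS-11 JQ1 replicate 1 (0.11) or RPMI8226 JQ1 replicate 2 (0.0049). The DMSO contrast of MACROH2A1 between those lines ran between -0.42 and 0.021, positive without KMS-11 DMSO replicate 2. Where a group was left with 1 library, that library was assumed to vary like the others. Same-numbered libraries deviated together with correlations of 0.106 for KMS-11, 0.0122 for KMS-12 and 0.104 for RPMI8226. The labels state no pairing, and such correlations cannot show whether same-numbered libraries shared a culture or a batch. With a replicate block over lines 4 variants were called higher in KMS-12, against 5, and with a block within line 8 in RPMI8226, against 7. Under the blocks over lines and within line these DMSO contrasts gained a call: KMS-11 over KMS-12 for H1-10 (edgeR adjusted p = 0.016 and 0.0247), RPMI8226 over KMS-11 for H2BC12 (0.0265 and 0.005) and H3-3B (0.0388 and 0.00644), and, within line only, KMS-11 over KMS-12 for H2AX (0.0272). Depth limits H2AJ outside KMS-12.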
